A study of Equus caballus with 24 samples.

Results

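A set of 47 genes stood high in the same 2 pieces of horse skin, labelled skin 9 and skin 16, and far lower by the median of the other 22 libraries of the series. The genes were chosen on the measured levels. Each had at least 20 CPM (reads of a gene scaled to a common library size and corrected for composition) in both pieces, and in both at least 10 times the median CPM of the other 22 libraries. Of 14930 genes with enough reads to be kept, 47 (0.315%) met this rule. Their height in skin 9 and skin 16 is therefore a description with no test. What the rule did not use is their order, how they vary among themselves and the traces they left in other libraries. Their difference between sarcoid and the other skin is not fully free of the rule, since the median it used includes the sarcoids.

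The series holds RNA sequencing of 24 pieces of horse tissue, 12 sarcoids labelled as tumour tissue and 12 pieces labelled as skin tissue. The labels give no treatment, genotype, breed or age for either group. Nothing in them ties the numbered specimens to separate horses, so p-values measure only the spread between these pieces, which may in part be technical. Each library goes by its group and its title's number, and the L that ends 4 of the sarcoid titles is not explained in the labels. Between 9673480 and 31769803 reads per library were counted in genes.

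Equine sarcoids are locally invasive tumours that arise from fibroblasts of the dermis and are linked to bovine papillomavirus. Skin itself is a layered organ, with an epidermis of keratinocytes, a dermis of collagen and fibroblasts, hair follicles, sebaceous and sweat glands, vessels and nerves, and in some places a thin sheet of muscle beneath. A bulk library adds up the RNA of all cells in a piece, so fewer cells of a type and less RNA per cell cannot be told apart. The files list Ensembl gene IDs without names, and 0 of the 30371 IDs matched the reference table of horse genes. The 47 genes can therefore not be assigned to a cell type or pathway here, and the labelled tissue could not be checked against marker genes. Genes are called by their rank, from 1 to 47, in the geometric mean of their CPM in skin 9 and skin 16. CPM counts reads without dividing by gene length, which was not known, so the order is one of reads taken and not of transcripts.

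The order by level was steep and led by a single gene. ENSECAG00000042020, the leading gene, stood at 236070 CPM in skin 9 and 42176 CPM in skin 16. Its level was 1975 CPM in skin 1 and 260.4 CPM in skin 19. In the other 8 skin libraries it ran from 14.4 to 23.1 CPM, and in the sarcoids from 3.19 to 67.9 CPM with a median of 6.86 CPM. No other library came near skin 9 or skin 16 in this gene, and skin 1 and skin 19 stood clear of the rest. Of all gene counts in skin 9, the leading gene took 18.6% (95% Wilson interval 18.59 to 18.62), and of those in skin 16 it took 2.54% (2.53 to 2.55).

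The second gene, ENSECAG00000024667, followed at 27159 CPM in skin 9 and 6558 CPM in skin 16. Skin 1 and skin 19 again came next, at 65.5 and 23.3 CPM. The remaining 8 skin libraries lay between 0.885 and 2.41 CPM. Sarcoids lay between 0 and 4.99 CPM with a median of 0.118 CPM, and 5 of them had no count. Against the median of the other 22 libraries, 0.814 CPM, this gene was 33381 times higher in skin 9 and 8060 times higher in skin 16. These were the largest ratios of the set. The leading gene, with a higher median of 15.3 CPM, reached 15432 and 2757 times.

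Below these 2 genes the levels fell steeply. The third gene stood at 21774 CPM in skin 9 and 4888 CPM in skin 16, and the fourth at 9612 and 2084 CPM. These first 4 genes held 88.3% of the set's counts in skin 9 and 82.8% in skin 16, with 70.7% and 62.7% in the leading gene alone. In skin 9, 15 genes exceeded 1000 CPM and 40 exceeded 100 CPM. In skin 16 the numbers were 7 and 24. The lowest levels were 29.3 CPM in skin 9 and 21.3 CPM in skin 16.

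**Figure D1:**
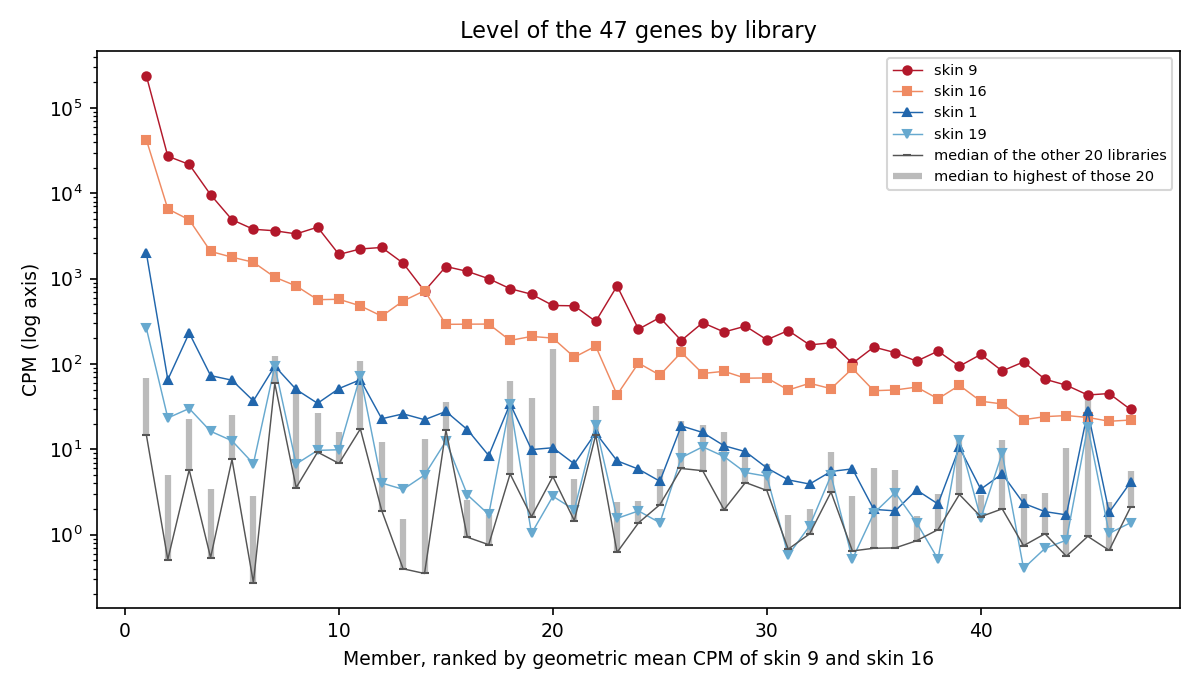
CPM (log axis) of each of the 47 genes, ordered by rank, in skin 9, skin 16, skin 1 and skin 19, with the median of the other 20 libraries and grey bars from that median to the highest of the 20. Skin 9 and skin 16 lie above the bars in every gene but rank 45, and skin 1 stands above the bars in 23 genes, 13 of them among the first 16.

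Skin 9 and skin 16 shared the order of the genes. Spearman's rho across the 47 genes was 0.927, against 0.768 across all 14930 genes of the same 2 libraries. Both values are across genes, which are not independent replicates, and the rule itself spreads the 47 genes over a wide range. Skin 9 was the higher of the 2 in 46 of 47 genes, where 54.0% of all genes were higher in skin 9. The ratio of skin 9 to skin 16 had a median of 3.35, with quartiles of 2.43 and 4.15, and lay between 2 and 5 in 36 genes. Over all genes with reads in skin 16 the median ratio was 1.06.

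A few genes left this common ratio. The gene of rank 14 was equal in the 2 pieces, at 715 CPM in skin 9 and 722 CPM in skin 16. It was the one gene not higher in skin 9. Rank 34 had a ratio of 1.15, at 101.6 and 88.5 CPM. At the other end the gene of rank 23 stood at 821 CPM in skin 9 and 43.6 CPM in skin 16, a ratio of 18.8. The leading gene had a ratio of 5.6. With 1 library of each piece, these differences between skin 9 and skin 16 have no replicate check.

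**Figure D2:**
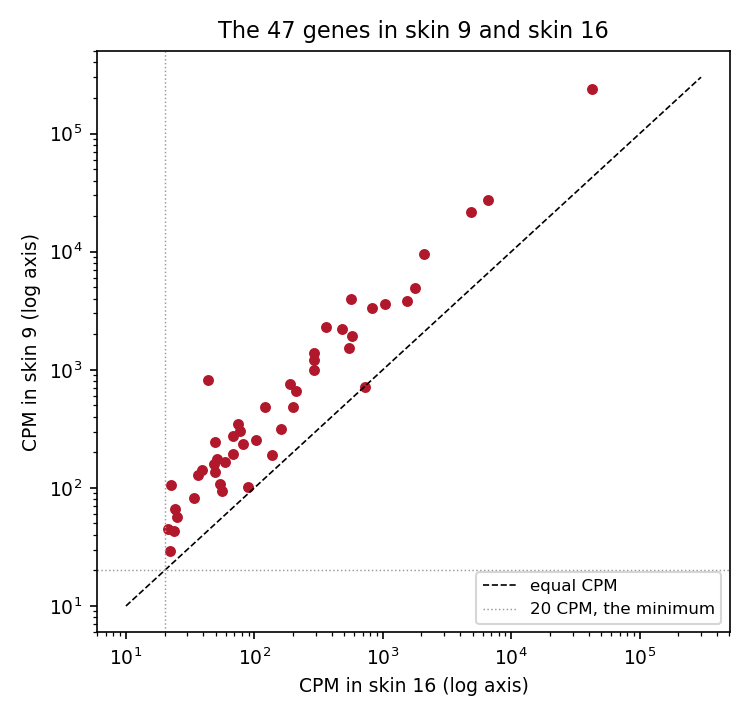
CPM of the 47 genes in skin 16 (x) and skin 9 (y), both on log axes, with the line of equal CPM and dotted lines at the 20 CPM that the rule asked for. All points but one lie above the line of equal CPM, and most run parallel to it at a median ratio of 3.35.

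The 2 pieces did not share all of their high genes. Taken alone, 126 genes met the same thresholds in skin 9 and 137 in skin 16. The 47 shared genes are 37.3% of the first list and 34.3% of the second. The pieces also had genes far below the other libraries. Among genes with a median of at least 20 CPM in the other 22 libraries, 195 were at or below 10% of that median in skin 9, 70 in skin 16 and 18 in both. Their part in the levels of the 47 genes, through the scaling of library sizes, was not tested.

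Outside skin 9 and skin 16 most of the 47 genes were low. Their median CPM over the other 22 libraries was below 1 in 15 genes, from 1 to below 10 in 27 genes and 10 or more in 5 genes. Over all genes kept, the median of this value was 13.6 CPM. The rule sets each gene against this same value, so low values are partly its outcome and nothing is read from the difference. The highest background belonged to the gene of rank 7, at 61.4 CPM over the other 22 libraries. It stood at 3636 CPM in skin 9 and 1038 CPM in skin 16. In 46 of the 47 genes no other library reached the lower of skin 9 and skin 16. The exception was the gene of rank 45, near the threshold, at 43.3 CPM in skin 9 and 23.6 CPM in skin 16. There skin 13 reached 42.3 CPM and skin 1 reached 27.7 CPM, while 7 sarcoids had no count. The median over the 22 libraries was 2.29 CPM.

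The thresholds did not fall in a gap. The gene just inside the level threshold had 21.3 CPM in skin 16, and the one just outside had 15.8 CPM there. Just inside the ratio threshold was a gene at 10.3 times the median in skin 16, and just outside one at 9.02 times.

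The filter on low counts mattered more. It kept genes with at least 0.756 CPM, before scaling for composition, in no fewer than 12 libraries. Without it 97 genes met the same thresholds, the 47 and 50 more. In these 50 genes the median over the other 22 libraries was at most 0.596 CPM, and it was 0 in 8 of them. They reached 8822 CPM in skin 9 and 1051 CPM in skin 16, with medians of 208 and 60.5 CPM, and 48 of them were higher in skin 9. Together they took 2.53% of the gene counts of skin 9 and 0.457% of those of skin 16. The set described here therefore lacks the genes with fewest reads elsewhere.

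Traces of the set formed an order of libraries. The 47 genes together took 26.3% of all gene counts in skin 9 (95% Wilson interval 26.3 to 26.33) and 4.05% in skin 16 (4.04 to 4.06). Their share was 0.462% in skin 1 (0.459 to 0.465) and 0.0931% in skin 19 (0.0915 to 0.0947). In the other 8 skin libraries the share ran from 0.0207% in skin 15 to 0.0672% in skin 2. In the sarcoids it ran from 0.0116% in sarcoid 3 to 0.0412% in sarcoid 2, with a median of 0.0206%. The intervals reflect counting alone, because amplified reads that carry no molecular identifier need not be separate molecules. Skin 1 and skin 19 thus followed skin 9 and skin 16, and the other skin libraries and the sarcoids overlapped. These shares are not scaled for composition, and the order of the remaining libraries depended on that. By summed CPM sarcoid 12 was the highest sarcoid, at 319.3, with sarcoid 2 at 258.6. The lowest skin library was then skin 6 at 319.0, so the overlap was narrow.

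**Figure D3:**
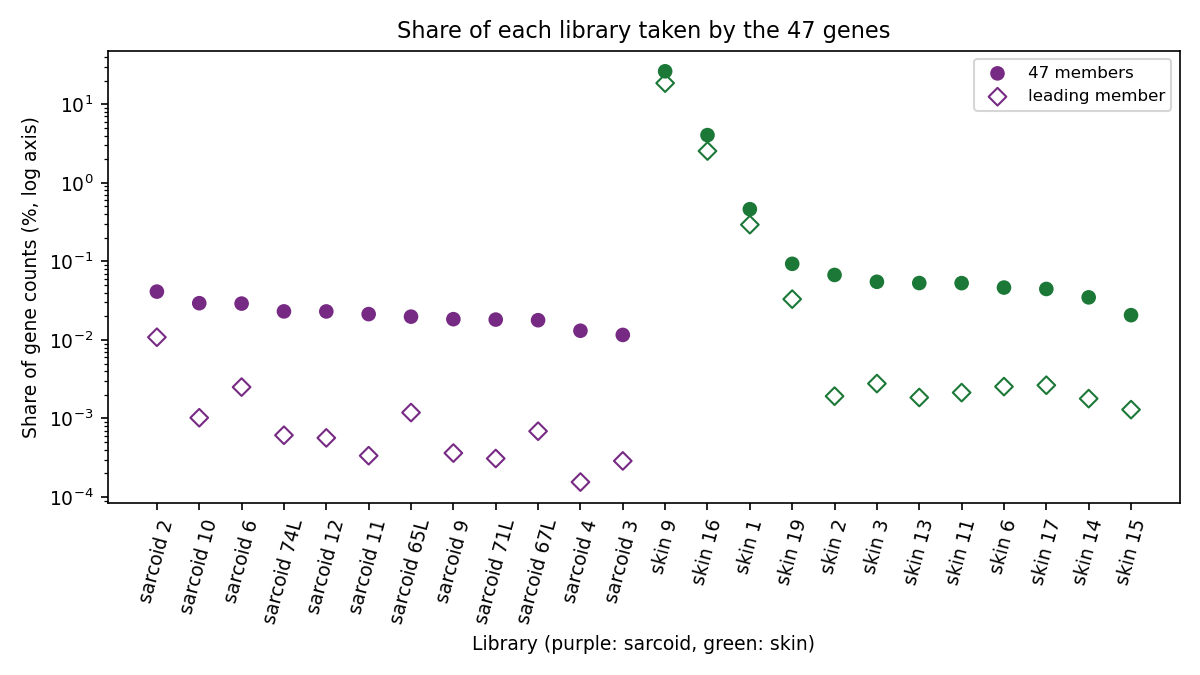
Share of all gene counts (%, log axis) taken by the 47 genes together (filled circles) and by the leading gene (open diamonds) in each library, sarcoids in purple and skin in green, ordered by share within each group. The diamonds lie close under the circles in skin 9, skin 16 and skin 1, and far below them in most other libraries.

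The make-up of the share changed along this order. The leading gene held 70.7% of the set's counts in skin 9, 62.7% in skin 16 and 63.5% in skin 1. It held 35.5% in skin 19 and 26.3% in sarcoid 2, and 1.18% to 8.65% in the other 19 libraries. Skin 1 thus came close to skin 16 in the leading gene's part of the set, though its total was smaller. The gene of rank 7, with the highest background, reached 63.1 CPM in sarcoid 4.

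Skin 1 carried the clearest trace. It was the highest of the 22 other libraries in 23 of the 47 genes, while it was highest in 3.96% of all genes kept. Of the first 16 genes by rank, 13 were highest in skin 1, and of the remaining 31 genes 10 were. Skin 1 had at least 3 times the median of the 22 libraries in 27 genes and at least 10 times in 13 genes. Among all genes kept, 3.49% had 3 times the median in skin 1. Across the 47 genes its order of CPM followed that of skin 9 with a Spearman's rho of 0.834, against 0.576 in skin 19, 0.422 in sarcoid 2 and 0.209 to 0.382 in the other 19 libraries. These correlations are across genes, and all libraries share the genes' own background levels.

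The trace in skin 1 was not a fixed fraction of skin 9. The leading gene in skin 1 stood at 0.837% of its CPM in skin 9, the third gene at 1.06% and the fourth at 0.760%. The second gene stood lower, at 0.241%. Over the 27 genes with at least 3 times the median in skin 1, this percentage ran from 0.241% to 64.1% with a median of 1.51%. The upper end was again the gene of rank 45, which is present in all skin libraries. Against skin 16, the second gene in skin 1 stood at 0.999% and the leading gene at 4.68%. All libraries were read in 1 pool per the labels' protocols, and whether reads passed between libraries was not tested. In sarcoid 4 the leading gene had 18 counts, 0.00034% of its 5288221 counts in skin 9, and in skin 1 it had 50907 counts, 0.963% of them.

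Skin 19 showed a smaller trace in fewer genes. It had at least 3 times the median of the 22 libraries in 12 genes, 9 of which were also at 3 times in skin 1. Among all genes kept, 3.68% had 3 times the median in skin 19. Skin 19 exceeded the highest of the 20 libraries other than the 4 named in 8 genes, at ranks 1, 2, 3, 4, 6, 13, 16 and 17. Over all genes kept, 3.84% did so. All 27 genes at 3 times the median in skin 1 were lower in skin 19 than in skin 1. For the fourth gene skin 19 stood at 16.3 CPM and skin 1 at 73.1 CPM, with the other 8 skin libraries between 1.62 and 3.41 CPM. Rank 6 stood at 6.79 CPM in skin 19 and 37.0 CPM in skin 1, with 0.110 to 2.80 CPM in those 8 libraries.

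The 50 genes below the filter left the same kind of trace. All 50 had at least 1 count in skin 1 and in skin 19, and the number with a count in any of the other 20 libraries ran from 18 in sarcoid 4 to 47 in skin 11. Skin 1 was the highest of the 22 libraries in 43 of the 50. Skin 19 exceeded the highest of the other 20 libraries in 17. These 50 genes took 0.0721% of the counts of skin 1, 0.0063% of those of skin 19 and between 0.0008% and 0.0035% in the other 20 libraries. The depth of a library bears on the number of genes with a count, and skin 11 was the deepest of all.

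The genes varied together across the other skin libraries, and skin 1 carried most of this. Over the 1081 pairs of the 47 genes the median Pearson correlation of log2 CPM was 0.393 in the 10 skin libraries other than skin 9 and skin 16. Over all pairs of genes kept it was 0.00143. Without skin 1 the median of the 47 genes was 0.065, and without skin 1 and skin 19 it was 0.0298. In the 12 sarcoids the median was 0.0974, and without sarcoid 2 it was 0.0899. These correlations are descriptions, and the libraries share their scaling. The leading gene correlated at over 0.5 with 27 of the other 46 genes in the 10 skin libraries, and with 2 in the 8 libraries left without skin 1 and skin 19.

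The leading and the second gene were tested as a pair, within each group. In the 10 skin libraries Pearson's r was 0.974 (permutation p = 0.00388, adjusted p = 0.00776 over the 2 groups) and Spearman's rho 0.636 (permutation p = 0.0541, adjusted p = 0.108). Without skin 1 and skin 19 r was 0.182 over n = 8 libraries (permutation p = 0.665), so the relation in skin rested on those 2 libraries. In the 12 sarcoids r was 0.703 (permutation p = 0.0238, adjusted p = 0.0238) and rho 0.458 (permutation p = 0.137). The second gene is near the floor there. It had no count in 5 sarcoids, sarcoid 6 among them, which share 1 value set by the prior count. Sarcoid 2 had 77 counts and each other sarcoid at most 10. These sarcoid values thus rest on few reads, and little is read from them. Without sarcoid 2 and sarcoid 6 r was 0.459 (permutation p = 0.183) and no longer passed, while rho was 0.517 (permutation p = 0.129), above its value with all 12. Sarcoid 2 stood highest of the tumours in both genes, at 67.9 CPM for ENSECAG00000042020 and 4.99 CPM for ENSECAG00000024667.

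**Figure D4:**
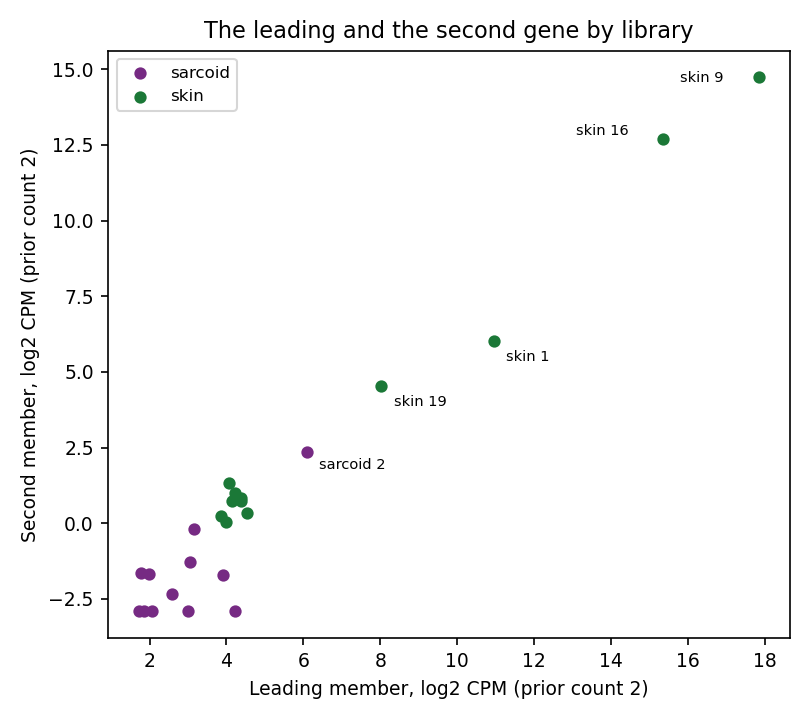
log2 CPM (prior count 2) of the leading gene (x) and the second gene (y) in each of the 24 libraries, sarcoids in purple and skin in green. Skin 9, skin 16, skin 1, skin 19 and sarcoid 2 stand apart in this order, and the other 19 libraries lie together at the lower left.

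Over the 22 libraries other than skin 9 and skin 16, the 5 genes most like the leading gene were all from the same set, and places 6 to 10 were not. The 3 with the highest Pearson correlation of log2 CPM were those of rank 2 (0.904), rank 13 (0.873) and rank 4 (0.867), over n = 22 libraries and given as a description. Those of rank 6 and rank 16 came next, at 0.860 and 0.750. The likeness was uneven over the set. Of all 14929 genes ranked, the 46 most like the leading gene included 8 of the other 46 members. The median place of these 46 members was 1686.5 and the lowest 9261. The 22 libraries pool skin and sarcoid, so a difference between the groups enters these correlations.

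The set was also compared between tumour and skin, over the 12 sarcoids and the 10 skin libraries that did not choose the genes. The rule used the median of these 22 libraries but not their groups. By the quasi-likelihood test of edgeR (adjusted p below 0.05, Benjamini-Hochberg over all 14930 genes), 28 of the 47 genes were lower in sarcoid and 4 were higher. Over all genes 25.9% were lower and 27.9% higher, 53.8% in either direction, against 59.6% and 8.51% of the set. The median log2 fold change of sarcoid over skin was -1.0 in the set and 0.025 over all genes. Of the 47 genes 13 reached the filter's level in fewer than 6 sarcoids. For 6 of those (ranks 2, 4, 14, 21, 28 and 45) it was reached in every skin library, and all 6 were among the 28. Ranks 6, 13, 17, 37 and 46 reached it in 10 or 11 skin libraries and at most 3 sarcoids, and were also called lower. The others, ranks 23 and 36, were not called. These skin numbers include skin 9 and skin 16, which pass by the rule itself. The genes of both lists were kept largely through the group where they are high, which favours a fall. Against the median of the 10 skin libraries instead of all 22, 39 of the 47 genes met the rule. Ranks 11, 18, 22, 27, 33, 39, 41 and 45 missed it, and all were called lower. Low sarcoid values helped these genes meet the rule, which again favours a fall. The values of all these genes are therefore descriptions, and the counts support no statement on the set.

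Some genes fell with no overlap between the groups. In 8 genes every sarcoid lay below each of the 10 skin libraries, which held for 6.84% of all genes. Of these 8, 4 (ranks 14, 21, 28 and 45) were kept largely through skin. The others, ranks 11, 18, 27 and 39, missed the rule when it was set against the skin median, as did rank 45. Nothing is therefore read from the count. In 0 of the 47 every sarcoid lay above, which held for 4.38% of all genes. The gene of rank 11 lay between 33.1 and 109.5 CPM in the 10 skin libraries, with a median of 69.0 CPM, and between 2.40 and 30.8 CPM in the sarcoids, with a median of 9.46 CPM. In skin 16 it stood at 479 CPM, under 10 times the skin median. Its log2 fold change of -2.69 ± 0.345 (SE) is therefore a description. Rank 18 lay between 14.9 and 62.5 CPM in skin and between 0.479 and 12.1 CPM in sarcoid. It stood at 188.6 CPM in skin 16, under 10 times its skin median of 34.2 CPM. Its log2 fold change, -3.52 ± 0.490 (SE), is a description too. Without skin 1 the log2 fold changes at ranks 11 and 18 were -2.70 and -3.51. Rank 45, kept largely through skin and given as a description, had a median of 18.2 CPM in skin and 0 in sarcoid.

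The leading gene fell too, by an amount that changed when skin 1 was left out. ENSECAG00000042020 averaged 238 ± 615 CPM in the 10 skin libraries and 12.5 ± 18.1 CPM in the 12 sarcoids (SD). On the log2 scale it fell by 4.23 ± 0.993 (SE), with an edgeR adjusted p = 0.00107, and without skin 1 by 1.85 (edgeR adjusted p = 0.0217). Over the same 22 libraries DESeq2 gave -2.45 (adjusted p = 7.21e-06) and limma's voom -2.25 (adjusted p = 0.0289). Of the sarcoids 11 lay below the skin median. Without sarcoid 2, the highest tumour in this gene, its log2 fold change was -4.99. Without both skin 1 and skin 19 it did not pass, at -0.55 (edgeR adjusted p = 0.367). ENSECAG00000024667 was kept largely through skin, and its values are a description. It averaged 10.1 ± 20.6 CPM in the 10 skin libraries and 0.551 ± 1.41 CPM in the 12 sarcoids (SD). Its log2 fold change was -4.06 with all 22 libraries, -2.72 without skin 1, -6.01 without sarcoid 2 and -1.33 without skin 1 and skin 19.

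In the third gene the call and the medians pointed opposite ways. It was called lower in sarcoid, at -1.78 ± 0.729 (SE) on the log2 scale with an edgeR adjusted p = 0.0431. Skin 1 stood at 230.8 CPM and skin 19 at 30.1 CPM, while the other 8 ran from 2.75 to 6.06 CPM. The skin median was 3.67 CPM and the sarcoid median 8.24 CPM, with 11 of 12 sarcoids above the skin median. Without skin 1 the log2 fold change was 0.35 (edgeR adjusted p = 0.507), and without skin 1 and skin 19 it was 1.17 (adjusted p = 0.00164), a rise. Leaving out skin 19, or any 1 sarcoid but sarcoid 12, also ended the call, with edgeR adjusted p between 0.0534 and 0.0628. Of the 28 lower genes it was the only one with a higher median in sarcoid.

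Of the 4 genes higher in sarcoid, 2 rose by a log2 fold change near 2 or more, and they are named here after their values were seen. ENSECAG00000021387, of rank 20, lay between 0.625 and 10.4 CPM in the 10 skin libraries and between 1.40 and 148.1 CPM in the sarcoids. It stood highest in sarcoid 12, followed by sarcoid 4 at 50.7 CPM and sarcoid 11 at 37.3 CPM, while 5 sarcoids lay below the skin median of 4.40 CPM. Its rise was 2.52 ± 0.733 (SE) on the log2 scale, with an edgeR adjusted p = 0.00592. It was 1.73 (edgeR adjusted p = 0.0219) without sarcoid 12 and did not pass in limma's voom test, at 1.26 (adjusted p = 0.162). In skin 9 and skin 16 it stood at 484 and 200.9 CPM, so sarcoid 12 came near skin 16. ENSECAG00000020400, of rank 19, lay between 0.278 and 9.93 CPM in skin, with skin 1 the highest, and between 1.26 and 40.0 CPM in sarcoid, with sarcoid 4 the highest. With a skin median of 0.861 CPM, 0 of 12 sarcoids lay below it, and the rise was 1.97 ± 0.666 (SE) on the log2 scale with an edgeR adjusted p = 0.016. It was 1.29 (edgeR adjusted p = 0.0573) without sarcoid 4 and 3.18 without skin 1. The rises at ranks 38 and 42 were smaller, at 0.73 and 1.02 (edgeR adjusted p = 0.0481 and 0.0293). The first did not pass without any 1 of 13 of the 22 libraries (edgeR adjusted p up to 0.0879), and the other without sarcoid 67L, sarcoid 74L or skin 14 (up to 0.0604).

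**Figure D5:**
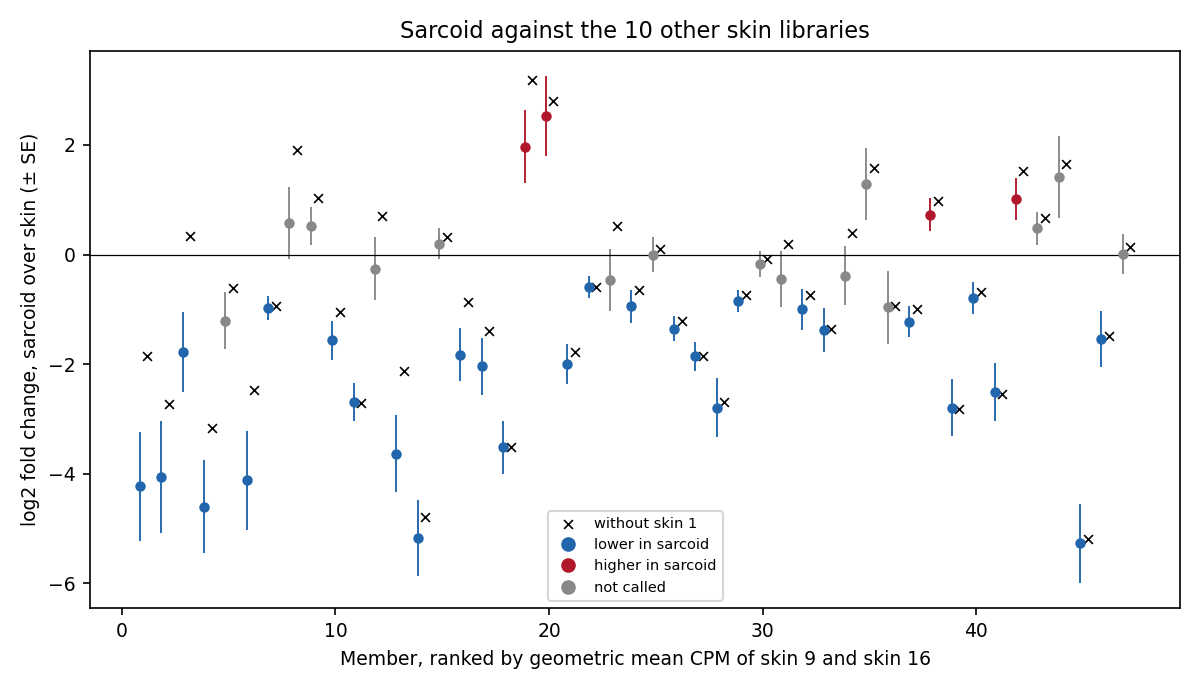
log2 fold change of sarcoid over skin for the 47 genes by rank, over 12 sarcoids and 10 skin libraries, with bars of 1 SE and colours for the call at an adjusted p under 0.05. Crosses give the same value without skin 1, which is higher in 15 of the first 16 ranks and in 28 of the other 31, and higher by over 0.5 in 12 and 6 of them.

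Leaving out skin 1 gave 26 lower and 6 higher genes of the 47. Over all genes 24.7% were then lower and 27.2% higher. The falls at ranks 3 and 32 no longer passed, and rises at rank 8 (log2 fold change 1.91, edgeR adjusted p = 0.0038) and rank 9 (1.04, edgeR adjusted p = 0.00245) did. With skin 1 kept these 2 genes had log2 fold changes of 0.57 and 0.52 that did not pass. Without skin 1 and skin 19 the numbers were 21 lower and 8 higher, against 23.3% and 25.6% of all genes. The sign of the fold change turned in 6 genes when skin 1 was left out. With skin 9 and skin 16 included, 45 of the 47 genes were called lower in sarcoid, which the choice of the genes brings about. Over all genes 26.3% were called lower there.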

How the data were processed

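The authors deposited counts, whole numbers of reads per Ensembl gene ID and library, not normalized. Per the submitters' processing notes, HTSeq and TopHat2 were used with the horse build EquCab3.0, beside FastQC and DESeq2. Strand setting and annotation release: not given in the sources used here. Genes with near-identical copies and overlapping or antisense genes are therefore uncertain. No library repeated another within sampling noise: over 276 pairs, chi-square divided by its degrees of freedom was at least 30.6. The 5 summary rows of each file held 72.6% to 86.6% of counts and were left out.

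Genes were kept with edgeR 4.0.16 (R 4.3.3) filterByExpr and libraries scaled by TMM. The 47 genes and all comparisons were chosen with earlier results of these data known. Gene lists and markers by symbol were not applied, since no ID has a name. By ID, the rule named the first 2 genes, and 2 that rose were named after their values were seen. Sarcoid and skin were compared without skin 9 and skin 16 by edgeR's quasi-likelihood test. That test was run on simulated counts with the same dispersion in all genes and no library set apart as skin 1 is here. SE is the log2 fold change over the square root of F. Correlations used log2 CPM with a prior count of 2 and two-sided tests of 100000 permutations. Alternatives were other scalings and filters, DESeq2 1.42.0, limma 3.58.1's voom, a block and left-out libraries.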

Additional observations from a re-analysis of the deposited data

Results flagged for a closer look

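Among the 10 skin libraries other than skin 9 and skin 16, skin 1 lay farther from the others than Dixon's 95% critical value of 0.466, the gap to the nearest library over the whole range, in 5 measures of the set. These were the leading gene at 1975 CPM (0.875), the second gene at 65.5 CPM (0.653), the summed CPM of the 47 genes at 3110 (0.851), that sum without the leading gene at 1135 (0.746), and the number of the 47 genes at 10 CPM or more, 24 (0.688). The 5 measures share genes and are not independent. Gene by gene, 23 of the 47 had a library that far from the other 9, and it was skin 1 in 22 of them. The share over all genes kept was not computed, so nothing is read from this count. Chance flags about 1 in 20 groups of normally distributed values. CPM on its plain scale can be skewed, so that rate need not hold here.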

How the results depend on the processing

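With no filter the rule found 97 genes, all 47 among them. Under RLE or upper-quartile factors, library size alone, 10 or 50 CPM, 5 or 20 times, or the median of the 10 skin libraries it found 34 to 67, and 44 to 49 with any 1 library left out. The lower genes numbered 26 to 29 and the higher genes 2 to 6 with any 1 library left out. Over all genes, 24.4% to 26.5% were then lower and 26.7% to 29% higher. All 24 libraries gave 45 lower and 0 higher, against 26.3% and 27.9% of all genes. The genes higher numbered 1 under library size alone, which moved the median over all genes from 0.025 to -0.30, 2 under voom, 2 without titles with an L and 8 without skin 1 and skin 19. Over all genes the higher share in these settings was, in the same order, 13.1%, 25%, 26.6% and 25.6%. Over the 8 libraries with a specimen number in both groups, 7 were lower and 2 higher with the number as a replicate block, and 8 and 3 without it. Over all genes 5.29% were lower and 5.12% higher with the block, and 8.47% and 8.59% without it. Of the 5 shared numbers, skin 9's included, 2 had deviations from the group means that correlated over 0.1. These were number 9, that of skin 9, at 0.486 and number 6 at 0.164. The 8 libraries do not include number 9. With 2 of 5 over 0.1 the numbers were not used as pairs, though the labels do not settle this. Of the 5 skin libraries 1 was closest to the sarcoid of its number. Over the 8 libraries the genes of ranks 1, 2 and 3 had log2 fold changes of 0.48, 0.14 and 0.96 (sign turned) without the block, and -0.59, -1.91 and 0.92 with it. The gene of rank 3 also turned under DESeq2 (0.30) and without skin 1 and skin 19 (1.17), and ran from -2.01 to 0.35 with 1 library left out, turning without skin 1. With all 24 libraries ranks 19, 20, 38 and 42 turned to -3.39, -1.22, -3.22 and -3.01. The rise at rank 38 did not pass in 20 of 34 settings. The cause of these changes was not tested. The correlation of the leading and second gene no longer passed without the 2 farthest libraries (0.182 in skin, 0.459 in sarcoid). At the depth of these libraries, 18 of the 47 genes had no count in at least 1 sarcoid.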
